A study of Mus musculus with 12 samples.

Results

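Evi2a, Evi2b and Nf1 were examined together because Evi2a and Evi2b lie inside an intron of Nf1, on the opposite strand, and overlap each other. They were taken by gene name from the table of expression values, in which each name belonged to a single identifier, and make up 3 of 36222 genes. Evi2b had drawn attention by its low level in stimulated Treg that lack Ikaros, so the comparison of genotypes after stimulation is given here as a description and not as a test. RNA was sequenced from 12 libraries of mouse regulatory T cells (Treg), sorted as CD4+YFP+ cells from individual animals aged 6 to 8 weeks. The labels give spleen as the tissue, and the study's methods name spleen and lymph nodes for Treg purification. All animals, controls included, carried the Foxp3-YFP-Cre allele, which makes Cre and the yellow fluorescent protein where Foxp3 is active. The wild-type (WT) animals had this allele alone, and the conditional knockout (cKO) animals also carried the floxed Ikzf1 allele and so lost Ikaros in the Foxp3-expressing cells only. Cells were used directly (ex vivo) or after 4 h on plate-bound antibodies to CD3 and CD28 at 1 µg/ml each (stimulated), with 3 libraries in each of the 4 groups.

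Nf1 encodes neurofibromin, a GTPase-activating protein that returns Ras from its active to its inactive state and so limits signalling from receptors such as the T cell receptor. Evi2a and Evi2b encode small transmembrane proteins and take their names from ecotropic viral integration sites found in mouse myeloid leukaemias. Both are known from blood cells, Evi2b from myeloid and B cells in particular. Genes nested in the intron of another gene on the opposite strand have start sites of their own, so their RNA levels need not follow that of the host gene.

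In the mm9 build, Nf1 (ENSMUSG00000020716) covers 79153195 to 79395114 on the plus strand of chromosome 11. One of its introns, at 79289386 to 79349104 and 59.7 kb long, holds 4 genes, all on the minus strand. Evi2a (ENSMUSG00000078771) lies at 79340062 to 79344111 and Evi2b (ENSMUSG00000070354) at 79326887 to 79344061. The other two are Omg, the gene of oligodendrocyte myelin glycoprotein, and the noncoding transcript AU040972. The longer Evi2b transcript starts beside the Evi2a start site and runs through Evi2a, and both genes use exon bases at 79341084 to 79341304 and at 79343871 to 79344061. These 412 shared bases are annotated as untranslated in the longer Evi2b transcript. They left 1885 of the 2297 exon bases of Evi2a (82.1%) and 3529 of the 3941 exon bases of Evi2b (89.5%) to that gene alone. No exon base of either gene overlapped an exon of Nf1. The counting mode gave reads on shared bases to neither gene, while the length used for the TPM included those bases. By unshared exon bases alone, per-length levels of Evi2a and Evi2b are understated by factors of 1.22 and 1.12. Read pairs only partly on shared bases were also lost, so the factors may be larger. For Evi2b the factor may also differ between groups with the mix of its transcripts, which was not measured. Reads of unspliced Evi2b RNA over the Evi2a exons were counted as Evi2a and cannot be told apart from Evi2a RNA.

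**Figure D1:**
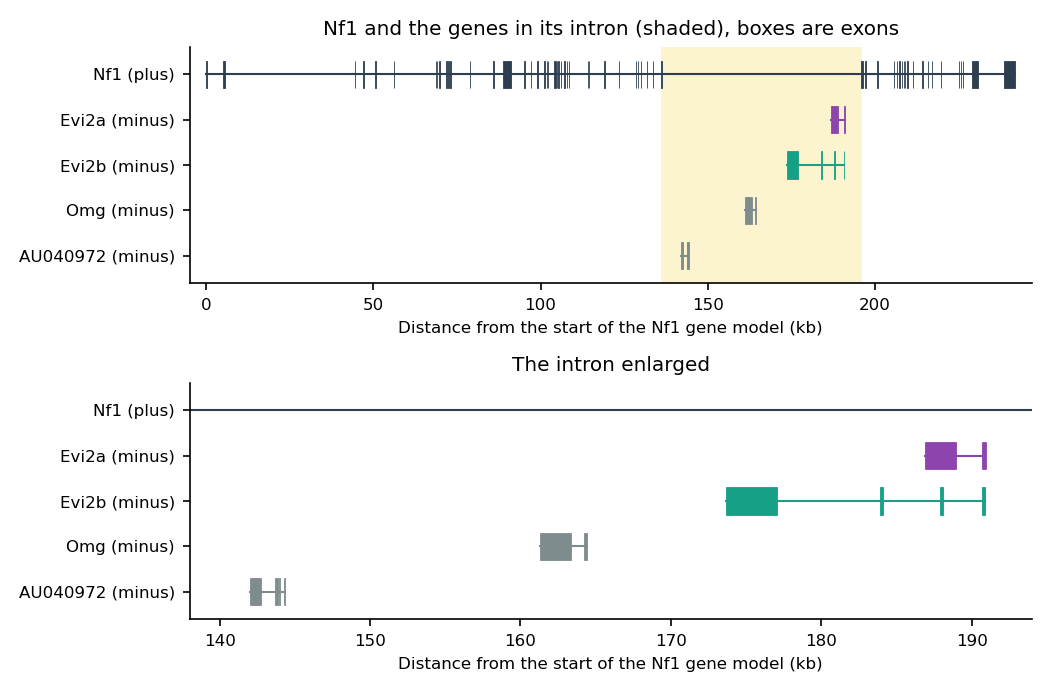
Gene models of Nf1 and of the 4 genes in its intron, by distance in kb from the start of the Nf1 gene model, with exons as boxes and the strand in brackets. The lower panel enlarges the 59.7 kb intron, in which the first exons of Evi2b coincide with exons of Evi2a.

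Upstream sequence is shown for the start sites from which these genes are annotated to be transcribed, since Ikaros binds a core written TGGGAA or, shorter, GGGAA. Both were searched on both strands in the 300 bases from 250 before to 50 after each start site, where every TGGGAA also counts as a GGGAA. The windows are identical to the RefSeq promoters of the GRCm38.p6 build and were read here from mm9. The stretches below run 5′ to 3′ on the strand of the gene, with matches in capitals. The first lies upstream of the Evi2a start site, which is also next to the start of the longer Evi2b transcript (chr11:79344112-79344361, minus strand). The next lies upstream of the inner start site of the shorter Evi2b transcript (chr11:79337265-79337514, minus strand). For Nf1, 30 bases around its TGGGAA are shown (chr11:79153358-79153387, plus strand). They lie before the Nf1 start site used here, at 79153394, but inside the first exon of other annotated Nf1 transcripts, which start as early as 79153195.
Evi2a start: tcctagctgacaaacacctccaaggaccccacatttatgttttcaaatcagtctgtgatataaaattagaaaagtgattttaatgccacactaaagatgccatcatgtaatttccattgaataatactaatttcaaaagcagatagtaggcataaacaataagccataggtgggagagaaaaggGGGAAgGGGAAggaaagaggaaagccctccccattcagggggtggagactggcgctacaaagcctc
Evi2b inner start: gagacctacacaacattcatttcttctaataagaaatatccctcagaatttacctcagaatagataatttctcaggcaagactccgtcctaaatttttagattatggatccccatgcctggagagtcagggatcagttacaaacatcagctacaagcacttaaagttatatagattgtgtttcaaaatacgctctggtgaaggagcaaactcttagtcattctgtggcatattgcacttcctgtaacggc
Nf1 start: tccccacccccgTGGGAAcgctagctgccc

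The Evi2a window held 3 GGGAA matches, at 66 and 60 bases before the start site on the gene's strand and at 40 bases after it on the other strand, and no TGGGAA. The window of the inner Evi2b start held neither. The Nf1 window held 1 TGGGAA at 24 bases before that start site and 1 further GGGAA on the other strand. Among 32851 promoter windows of the same length, 62.7% held GGGAA, 8.83% held it 3 or more times, and 25.6% held TGGGAA. G and C made up 43.3% of the Evi2a window, 41% of the inner Evi2b window and 75.7% of the Nf1 window, against a median of 52.7% over all promoters.

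Between 8208659 and 20247649 reads of a library fell on genes, fewest in the stimulated cKO group. The targeted gene, Ikzf1, ranged over 83.8 to 125 TPM (WT) and 38.8 to 44.3 TPM (cKO) ex vivo and over 66.4 to 83.4 TPM (WT) and 17.0 to 31.6 TPM (cKO) after stimulation, with no overlap of genotypes. The sorted cells carried the markers of their label, with 4 T cell markers summing to 485 to 1638 TPM and 6 Treg markers to 614 to 1578 TPM. These markers were not level between groups. WT ex vivo 3 stood apart, with Xist at 179 TPM against at most 1.36 TPM in the other 11 libraries. A single gene model, Gm10800, took between 17.7% and 55.9% of the TPM of a library, most in stimulated cKO, which lowers the deposited TPM of other genes there. Levels are therefore given as deposited, in TPM (transcript abundance per length, which sums to 1000000 in each library), and the changes on scaled TPM, in which each library was divided by a factor from the bulk of its genes (trimmed mean of M-values).

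Evi2b was the most abundant of the 3 genes. Its mean over all libraries was 20.3 TPM, above 73.6% of the 13318 genes tested, while Evi2a at 7.34 TPM and Nf1 at 7.44 TPM exceeded 36.7% and 37.4% of them. Omg, in the same intron and on the same strand as Evi2a and Evi2b, was at 0.479 to 1.74 TPM (10 to 33 reads), and AU040972 reached at most 2.42 TPM. Within a library, Evi2a was 3.65 to 18.9 times and Evi2b 6.75 to 52.7 times the level of Omg.

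Ex vivo, the level of Evi2b was 25.3, 18.6 and 23.7 TPM in the WT libraries and 16.1, 18.8 and 23.6 TPM in the cKO libraries. Once stimulated, the WT libraries had 29.3, 24.6 and 36.8 TPM and the cKO libraries 9.63, 9.48 and 8.06 TPM. The stimulated cKO libraries were thus below all the others, and as deposited the other neighbouring groups overlapped. On scaled TPM the order was stimulated cKO at 10.3 ± 0.992, cKO ex vivo at 17.5 ± 3.29, WT ex vivo at 23.7 ± 1.29 and stimulated WT at 27.6 ± 2.44 (SD, n = 3 each), and no neighbouring groups overlapped. These values rested on 227 to 310 reads per library in stimulated cKO and on 612 to 1244 reads elsewhere.

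Evi2a was low throughout, at 64 to 312 reads per library. Its ex vivo levels were 8.51, 8.91 and 8.95 TPM for WT, against 10.5, 9.22 and 10.5 TPM for cKO. The stimulated libraries had 5.52, 5.72 and 7.11 TPM for WT, against 4.08, 4.25 and 4.87 TPM for cKO. All ex vivo libraries lay above all stimulated libraries. On scaled TPM the genotypes overlapped both ex vivo, at 9.43 ± 1.65 in WT and 9.07 ± 1.09 in cKO, and after stimulation, at 5.64 ± 0.629 and 5.10 ± 1.42 (SD, n = 3 each). As deposited they did not overlap, with cKO higher ex vivo and lower after stimulation. In stimulated cKO the mean of Evi2a, at 4.40 TPM, was near those of Itgax (4.40) and Mpo (3.95), markers of other cell types. In WT ex vivo the same markers stood at 2.81 and 2.07 TPM, below Evi2a at 8.79 TPM. Other such markers were lower or higher. Whether such levels are a floor of the signal was not tested.

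Nf1 went the other way with stimulation. Without stimulation the WT libraries had 5.60, 3.81 and 3.81 TPM and the cKO libraries 7.27, 8.08 and 8.27 TPM. Stimulated WT libraries had 8.48, 7.87 and 8.99 TPM, and stimulated cKO libraries had 11.1, 9.49 and 6.56 TPM. WT ex vivo was thus the lowest group, below every other library. On scaled TPM the groups ran from 4.62 ± 0.521 in WT ex vivo through 7.08 ± 0.325 in cKO ex vivo and 7.81 ± 0.540 in stimulated WT to 10.03 ± 0.929 in stimulated cKO (SD, n = 3 each), where only cKO ex vivo and stimulated WT overlapped. The values rested on 554 to 1509 reads per library. In WT ex vivo the mean of Nf1, at 4.41 TPM, stood against 2.81 TPM for Itgax and 2.07 TPM for Mpo.

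**Figure D2:**
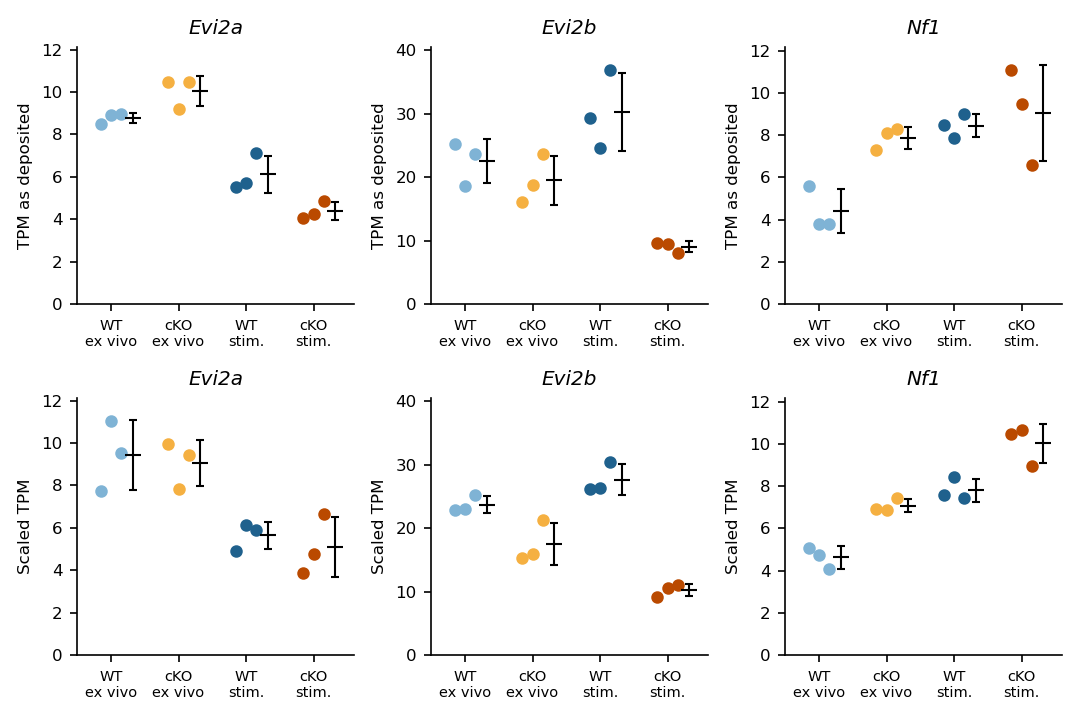
Level of Evi2a, Evi2b and Nf1 in each of the 12 libraries, in TPM as deposited (upper row) and in scaled TPM (lower row). Points are libraries, and the mark with its bar is the mean ± SD of 3. Evi2b in stimulated cKO lies at 8.06 to 9.63 TPM, under every other library, while Nf1 is lowest in WT ex vivo.

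The comparison of genotypes after stimulation asks which genes depend on Ikaros in activated Treg. Evi2b was 2.55-fold lower in cKO, a difference of -1.35 (log2 of scaled TPM + 1, SE 0.12), and none of the cKO libraries reached the lowest WT library. Folds are given for scaled TPM + 1, so that for a gene at a low level they come out smaller than the ratio of its levels. Nf1, in whose intron Evi2b lies, was higher in cKO by 0.32 (SE 0.10), with no overlap on scaled TPM and overlap as deposited, and by 0.05 when genes down to 1 TPM set the scale and 0.06 with the TPM as deposited. Evi2a, whose exons Evi2b shares, differed by -0.15 (SE 0.18) with overlapping groups, by -0.30 without cKO stimulated 3, by 0.01 without cKO stimulated 1 and by -0.40 when genes down to 1 TPM set the scale. The genes tested had 923 calls of 13318 (6.93%) in this comparison, and in 18% of them all cKO libraries lay lower, in 12.8% higher, without overlap. Since Evi2b was chosen from this comparison, nothing is read from its place among them. In the same comparison the 4 T cell markers summed to 785 to 1146 TPM as deposited in WT and to 485 to 776 TPM in cKO. On scaled TPM 1 of them was called, Cd3d, which fell by 0.61 (adjusted p 0.0229 in limma), while the differences were -0.25 for Cd3e, -0.38 for Cd3g and 0.21 for Cd4. Of the 6 Treg markers Foxp3 (0.96, adjusted p 0.00847 in limma) and Il2ra (0.80, adjusted p 0.00971) rose, and the other four, at -0.15 to 0.32, were not called. The B cell marker Cd79b rose (0.96, adjusted p 0.0283 in limma). Their part in the Evi2b difference was not tested. In RNA from whole sorted populations, fewer cells of a type and less RNA per cell cannot be told apart.

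The ex vivo libraries are not those in which the low level of Evi2b was seen, although their results were also known when the genes were chosen. Of the members, Nf1 passed the test between genotypes ex vivo. It was 1.44-fold higher in cKO, by 0.53 (log2 of scaled TPM + 1, SE 0.10, and 0.61 with a pseudocount of 0.1), with an adjusted p of 0.0144 (limma, Benjamini-Hochberg over 13318 genes), and higher in all 3 cKO libraries than in any WT library on both scales. Evi2b was lower in cKO by -0.43 (SE 0.12) with an adjusted p of 0.076 in limma, which missed the threshold of 0.05. Its groups did not overlap on scaled TPM and did as deposited. Evi2a differed by -0.04 (SE 0.18, adjusted p 0.945 in limma). So 1 of 3 members was called, against 5.29% of all genes tested, and 11.6% of genes were higher and 9.95% lower in all cKO libraries without overlap. The Nf1 call was lost without WT ex vivo 3 (adjusted p 0.0569 in limma), the library with Xist at 179 TPM. It was also lost without cKO ex vivo 1 (0.0508), without cKO ex vivo 3 (0.0708) and with the TPM as deposited (0.0784). The same held when genes down to 1 TPM were tested (0.556) and with no filter (0.531). The Evi2b difference passed without cKO ex vivo 3, where it was -0.57 with an adjusted p of 0.0247 in limma, with the replicate number as a block (0.0336) and in a voom fit to the recovered reads (0.0133). It was -0.20 (adjusted p 0.645 in limma) with the TPM as deposited, and its adjusted p was 0.732 when genes down to 1 TPM were tested and 0.752 with no filter.

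The genotype difference in Evi2b was larger by 0.92 after stimulation than ex vivo (-1.35 against -0.43). For Evi2a the same differences were -0.15 and -0.04, and for Nf1 they were 0.32 and 0.53. Whether the genotype difference changed with stimulation was not tested, since the stimulated libraries had chosen Evi2b.

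Stimulation for 4 h moved Evi2a and Nf1 in opposite directions. In WT, Evi2a fell by 0.64 (log2, SE 0.18, adjusted p 0.0168 in limma), which is 1.56-fold, and Nf1 rose by 0.65 (SE 0.10, adjusted p 0.000736), which is 1.57-fold. In cKO, Evi2a fell by 0.74 (SE 0.18, adjusted p 0.00656 in limma) and Nf1 rose by 0.45 (SE 0.10, adjusted p 0.00579). The fall of Evi2a in cKO was larger, at 1.21, when genes down to 1 TPM set the scale. Both tested members were thus called in each genotype, where 32% of the genes tested were called in WT and 43.8% in cKO, so that calls were common in these comparisons. Neither gene overlapped between conditions on scaled TPM, while 26.3% of genes in WT and 30.7% in cKO were lower, and 21.1% and 22.8% higher, in every stimulated library. Evi2b, which shares the stimulated libraries with the comparison that chose it, is described only. It was higher by 0.21 (SE 0.12) in stimulated than in ex vivo WT libraries and differed by -0.71 (SE 0.12) between stimulated and ex vivo cKO libraries. The difference in WT turned to -0.04 when genes down to 1 TPM set the scale and to -0.01 with no filter. The WT libraries overlapped as deposited and not on scaled TPM, and the cKO libraries overlapped on neither scale. The call for Evi2a in WT was lost without WT ex vivo 2 (adjusted p 0.0585 in limma), without WT stimulated 1 (0.0649) and with the TPM as deposited (0.0584). The call for Nf1 in WT was lost when genes down to 1 TPM were tested (0.43, adjusted p 0.251 in limma) and with no filter (0.46, adjusted p 0.23). The rise of Nf1 in cKO kept its direction with the TPM as deposited, at 0.15 and an adjusted p of 0.556 in limma, and turned to -0.04 (0.908) when genes down to 1 TPM set the scale.

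**Figure D3:**
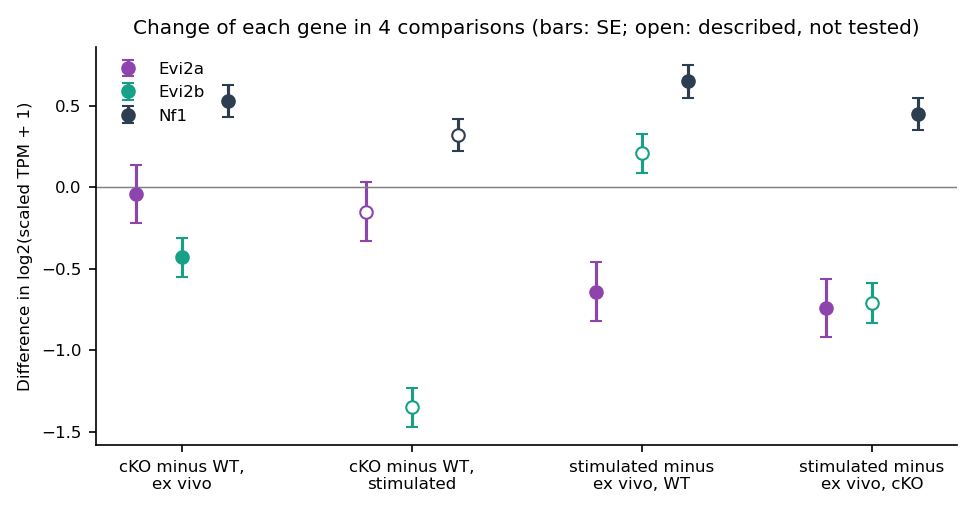
Change of Evi2a, Evi2b and Nf1 in the 4 comparisons, as the difference in log2(scaled TPM + 1) with its SE. Filled points were tested and open points are described only. Nf1 lies above 0 throughout on this scale, though not in cKO with stimulation when genes down to 1 TPM set it, and Evi2b differs most between stimulated genotypes, at -1.35.

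The ratio of genes within a library does not depend on how libraries are scaled. Evi2b was 4.51, 4.88 and 6.22 times the level of Nf1 in WT ex vivo and 2.21, 2.33 and 2.86 times in cKO ex vivo. After stimulation it was 3.45, 3.13 and 4.10 times the level of Nf1 in WT and 0.870, 0.999 and 1.23 times in cKO. None of the 4 groups overlapped another in this ratio, which ran from about equal levels in stimulated cKO to a mean of 5.21 ± 0.897 in WT ex vivo (SD, n = 3). Ex vivo the genotypes differed by -1.07 (log2), and the exact permutation test (two-sided) gave p = 0.1, its minimum with 20 arrangements of 3 against 3.

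Evi2a stood at 0.337, 0.479 and 0.378 times the level of Evi2b in WT ex vivo and at 0.650, 0.491 and 0.442 times in cKO ex vivo, with overlapping genotypes (difference 0.40 in log2, p = 0.2 in the same exact test, and 0.24 without cKO ex vivo 1). In stimulated WT the ratio was 0.189, 0.232 and 0.193, below all other libraries, and in stimulated cKO it was 0.424, 0.448 and 0.605. In this ratio stimulated cKO overlapped both ex vivo groups. Relative to Nf1, Evi2a stood at 1.52 to 2.35 times (WT) and 1.14 to 1.44 times (cKO) ex vivo, 0.651 to 0.791 times in stimulated WT and 0.369 to 0.743 times in stimulated cKO. Ex vivo this ratio was lower in all cKO libraries, by -0.67 in log2 (p = 0.1 in the same exact test). The 3 ratios share their genes and give 3 tests, none of which could pass 0.05. Counting per unshared exon base would multiply the ratios by constant factors of 1.09 for Evi2a to Evi2b, 1.12 for Evi2b to Nf1 and 1.22 for Evi2a to Nf1.

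**Figure D4:**
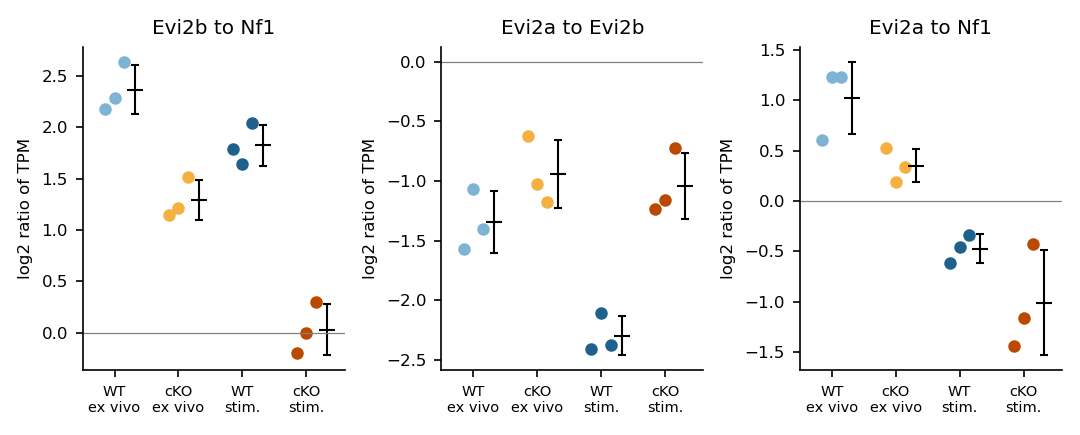
Ratio of the TPM of each pair of genes within a library, in log2, by group. Points are libraries, the mark with its bar is the mean ± SD of 3, and the line at 0 marks equal levels. Evi2b to Nf1 falls into 4 groups without overlap, and Evi2a to Evi2b is lowest in stimulated WT.

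Beyond the members, 30 genes lie within 500 kb of Nf1, and 9 of them reached the 5 TPM needed for the test, a pair of them (Mir193 and a U6 copy, ENSMUSG00000077574) on at most 6 reads. Ex vivo, 2 of the 9 rose and 1 fell in cKO, with a median change of 0.10 against -0.01 over all genes tested, of which 5.29% were called. Rab11fip4, a partner of Rab11 in vesicle traffic whose gene starts 9.60 kb past the end of Nf1 on the same strand, had 17.8, 10.6 and 12.9 TPM (WT) and 28.3, 26.5 and 27.9 TPM (cKO). It rose by 0.76 (SE 0.10, adjusted p 0.00246 in limma). Ksr1, a scaffold of the kinases downstream of Ras that lies 193 kb before Nf1, rose by 0.41 (SE 0.08, adjusted p 0.0182 in limma), a call lost without WT ex vivo 2, WT ex vivo 3 or cKO ex vivo 3 in turn (adjusted p up to 0.0835). Crlf3, which encodes a cytokine receptor-like factor and lies 465 kb past Nf1, fell by 0.71 (SE 0.12, adjusted p 0.00827 in limma).

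After stimulation, 1 of these 9 genes was called between genotypes, against 6.93% of all genes tested. Crlf3 went from 82.0, 72.1 and 88.7 TPM (WT) to 43.2, 50.7 and 31.3 TPM (cKO), and fell by 0.67 (SE 0.12, adjusted p 0.00869 in limma). The calls of Crlf3, Ksr1 and Rab11fip4 between genotypes were lost when genes down to 1 TPM were tested, and those of Crlf3 and Ksr1 ex vivo also with the TPM as deposited. With stimulation, 1 of the 9 rose and 3 fell in WT, and 1 rose and 4 fell in cKO, where 32% (WT) and 43.8% (cKO) of all genes tested were called. Lgals9, the gene of galectin-9, fell by 1.22 in WT and by 0.95 in cKO (SE 0.16, adjusted p 0.000193 and 0.000773 in limma). Rab11fip4 fell by 0.63 and 1.21 (SE 0.10, adjusted p 0.00089 and 9.9e-06), in both genotypes in the direction opposite to that of Nf1 on this scale, the call in WT being lost with the TPM as deposited. Utp6, which acts in ribosome assembly, rose by 0.27 in WT and 0.22 in cKO (SE 0.08, adjusted p 0.0183 and 0.0358 in limma). Its call in WT was lost in 3 of the 12 fits with a library left out, those without WT ex vivo 1, WT stimulated 2 or WT stimulated 3 (adjusted p up to 0.0975). In cKO it was lost in 7 of them, those without any 1 of the cKO ex vivo libraries, WT stimulated 2, WT stimulated 3, cKO stimulated 1 or cKO stimulated 2 (up to 0.207), and in voom. Both calls were lost with the TPM as deposited or with genes under 5 TPM kept in the scaling, where the change in cKO turned negative, to as low as -0.28. Suz12, a Polycomb subunit, differed by at most 0.05 in the 4 comparisons and passed none of the tests.

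Neurofibromin is 1 of several proteins that set the activity of Ras. A list of 26 further genes, called Ras regulators here, was read, of which 17 reached 5 TPM. Of the 26, 5 encode Ras proteins themselves, 4 of them tested. Ex vivo, 1 of the 17 fell in cKO and 0 rose in limma, with a median change of -0.04 against -0.01 over all genes tested, of which 5.29% were called. At an unadjusted p under 0.05, 5 of the 17 were higher and 7 lower in cKO, against 9.99% and 7.91% of all genes tested. The voom fit called 1 higher, Dab2ip, and 4 lower, which were Rasa2, Rasa3, Rasgrp2 and the Ras gene Rras2, against 5.76% and 3.27% of all genes tested. Dab2ip reached a group mean of 5 TPM in the cKO groups only, so it entered the test through the genotype in which it is high, and its calls between genotypes support nothing. The gene that fell was Rasa2, another GTPase-activating protein of Ras, which fell by 0.49 (SE 0.11, adjusted p 0.027 in limma), and lost its call in 5 of the 12 fits with a library left out, those without WT ex vivo 1, WT ex vivo 3 or any 1 of the cKO ex vivo libraries (adjusted p up to 0.104). Of the 10 genes listed with Nf1 as GTPase-activating proteins, 7 were tested, 1 of them Iqgap1, which has a related domain but is not known to act on Ras in this way. Without Iqgap1, 0 of the other 6 rose and 1 fell ex vivo in limma, and at an unadjusted p under 0.05, 1 was higher (Dab2ip) and 3 were lower, with the same shares over all genes tested as above. After stimulation, 1 of the 17 rose in cKO and 1 fell, against 6.93% of all genes tested that were called. Rasa3, of the same class, went from 65.6, 69.1 and 79.1 TPM (WT) to 39.2, 38.1 and 27.0 TPM (cKO) and fell by 0.74 (SE 0.13, adjusted p 0.00593 in limma). Dab2ip rose by 0.64 (SE 0.15, adjusted p 0.0316 in limma), from 3.81, 3.70 and 4.44 TPM (WT) to 6.62, 4.92 and 5.23 TPM (cKO), and lost its call in 5 of the 12 fits with a library left out, those without any 1 of the WT stimulated libraries, cKO stimulated 1 or cKO stimulated 3 (adjusted p up to 0.0991). The genotype calls of Rasa2, Rasa3 and Dab2ip were all lost when genes down to 1 TPM were tested, and those of Rasa2 and Dab2ip also with the TPM as deposited and with the replicate block.

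With stimulation, 3 of the 17 Ras regulators rose and 5 fell in WT, and 2 rose and 6 fell in cKO, where 32% (WT) and 43.8% (cKO) of all genes tested were called. Among the GTPase-activating proteins the direction of Nf1 was shared by Rasa2, which rose by 0.32 in WT and 0.56 in cKO (SE 0.11, adjusted p 0.0458 and 0.00227 in limma), the call in WT being lost in 10 of these 12 fits and kept in those without WT ex vivo 3 or WT stimulated 1. Both calls of Rasa2 were lost when genes under 5 TPM were kept and with the TPM as deposited, where the change in cKO was as low as 0.05. Rasal3, which is found mainly in blood cells, fell by 1.17 and 1.05 (SE 0.09, adjusted p 7.52e-06 and 9.76e-06 in limma). Of the exchange factors, which load Ras with GTP, Sos1 rose by 0.55 in both genotypes (SE 0.10, adjusted p 0.00217 and 0.0017 in limma), calls that were lost when genes under 5 TPM were kept, in cKO also with the TPM as deposited and with a change as low as 0.04. Rasgrp2 fell by 1.53 and 1.11 (SE 0.13, adjusted p 1.74e-05 and 0.000107 in limma). The Spred partners of neurofibromin, Spred1 and Spred2, had 1 call in these comparisons, a fall of Spred2 by 0.54 in cKO (SE 0.12, adjusted p 0.00591).

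**Figure D5:**
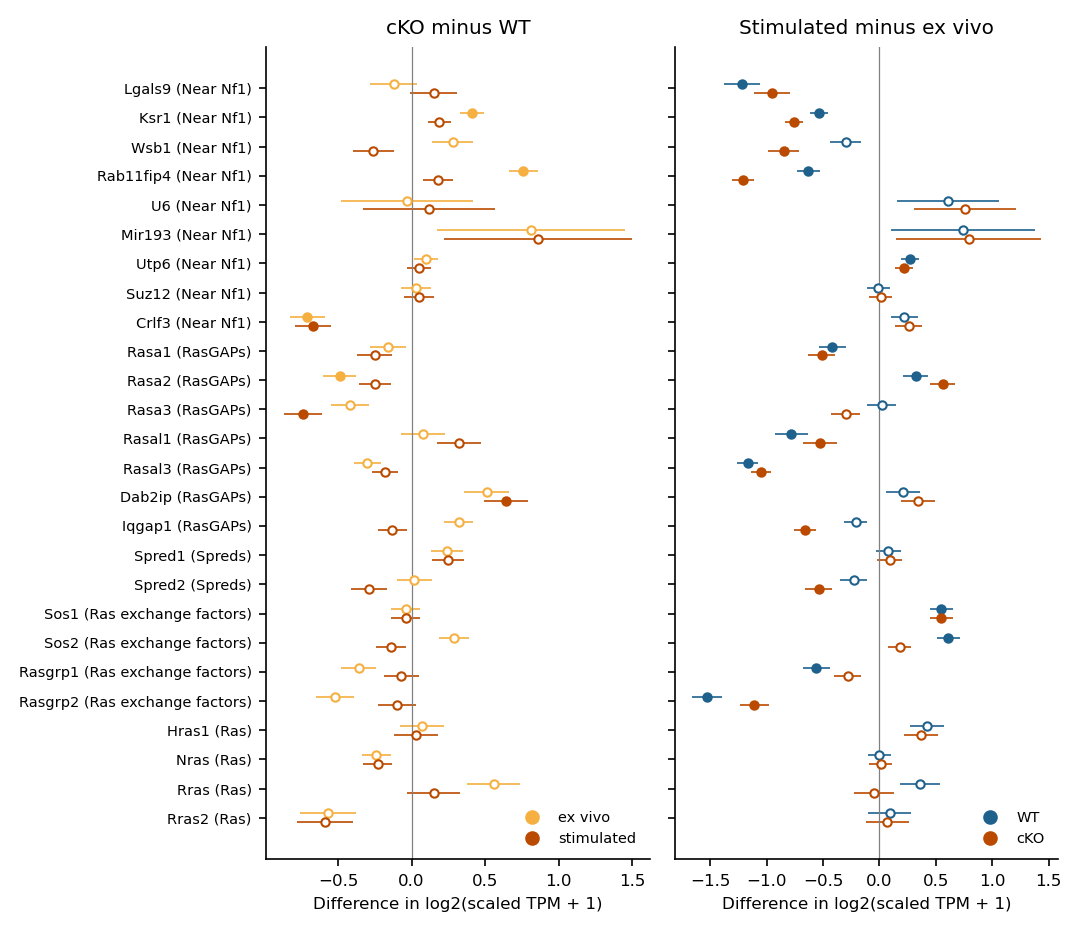
Differences in log2(scaled TPM + 1) with SE for the 9 tested genes within 500 kb of Nf1 and the 17 tested Ras regulators, which include 4 Ras genes, between genotypes (left) and with stimulation (right). Filled points have an adjusted p under 0.05 in limma. Crlf3 lies below 0 in both genotype comparisons, at -0.71 ex vivo and -0.67 after stimulation.

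Across the 12 libraries, log2(scaled TPM + 1) of Evi2b was most like that of Acsbg1, an acyl-CoA synthetase (Pearson r 0.959), Pnpla7, a lysophospholipase (0.943), Card6 (0.941), Gtf2i, the transcription factor TFII-I (0.933), and Arhgef3 (0.928). All 5 were lowest in stimulated cKO, as genes picked for likeness to Evi2b in these libraries would tend to be. Acsbg1 had ex vivo means of 12.1 (WT) and 9.35 (cKO) TPM and stimulated means of 14.8 (WT) and 5.46 (cKO) TPM. For Nf1 the 5 genes were Eea1, a tether of early endosomes (0.975), Mdfic (0.970), Vcl, the gene of vinculin (0.967), Irf4, a transcription factor induced by T cell receptor signals (0.967), and Atp2b4, a calcium pump of the plasma membrane (0.966). Irf4 had ex vivo means of 38.9 (WT) and 100.3 (cKO) TPM and stimulated means of 133 (WT) and 162 (cKO) TPM, the same order of groups as Nf1. For Evi2a they were 0610037P05Rik (0.956), the pseudogene Scp2-ps2 (0.953), SNORD101 (0.946), the mitochondrial chaperone gene Hspd1 (0.944) and Gm13436 (0.942). Among the members, r was 0.375 between Evi2a and Evi2b, -0.619 between Evi2b and Nf1 and -0.771 between Evi2a and Nf1. These values describe 12 libraries in 4 groups that share their depth and scaling. The named genes were the 5 of 13317 with the highest r to their member, and the values between members were looked up. That a named gene has the order of groups of its member follows largely from this choice.

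Because Evi2a and Evi2b are known from myeloid and B cells, markers of those cells were read in the same libraries. The 7 monocyte and macrophage markers summed to 14.0 to 17.5 TPM (WT) and 16.4 to 25.8 TPM (cKO) ex vivo, 23.4 to 34.7 in stimulated WT and 23.4 to 32.8 in stimulated cKO. The 6 B cell markers summed to 12.8 to 16.1, 19.4 to 28.2, 12.9 to 18.6 and 17.0 to 23.3 TPM in the same order. No marker of either list was at 0 reads in any library, and 6 of the 7 and 4 of the 6 stayed under 5 TPM throughout, the highest being Cd68 at 17.0 TPM and Cd79b at 12.1 TPM. The other marker lists summed to 11.1 to 25.1 TPM for 9 neutrophil genes, 6.57 to 15.8 for 5 dendritic cell genes, 8.84 to 16.3 for both CD8 genes, 3.96 to 8.96 for 3 natural killer cell genes and 2.35 to 6.88 for 4 red cell genes. Of the red cell genes, Hba-a1 was at 0 TPM in every stimulated WT library and in some libraries of each other group, and reached at most 0.361 TPM. Of 4 markers of the glial cells in which Omg is known, Mbp reached 41.5 TPM and the other three stayed under 5 TPM. With stimulation Cd68 rose by 0.86 in WT and 0.65 in cKO (adjusted p 0.000493 and 0.00239 in limma). Cd79b fell by 0.68 in WT (0.0406) and was not called in cKO. All 4 T cell markers fell with a call, by 0.52 to 0.69 in WT and 0.77 to 1.11 in cKO. The Treg markers moved in both directions. These comparisons called 32% (WT) and 43.8% (cKO) of all genes tested. The part of these cell types in the levels and changes of Evi2a and Evi2b was not tested.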

How the data were processed

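The deposited table holds an expression signal for 12 libraries of total RNA depleted of ribosomal RNA. Per the labels and the study's methods, the authors prepared stranded libraries, read them as 51 bp pairs, mapped these to mm9 using STAR 2.6.0c and counted reads on exons by strand with HTSeq 0.6.1 in union mode. The authors scaled the counts to TPM, and the deposited log2 values add 1 read's worth to each TPM, from which whole reads were recovered for 99.998% of values (within 0.01). A table of the authors' own fold changes and p-values was not used. Genes with a group mean of at least 5 TPM (13318) were brought to 1 scale with trimmed means of M-values (30% of M and 5% of A trimmed). Then limma 3.58.1 in R 4.3.3 was fitted to log2(scaled TPM + 1) of all 12 libraries with group as the only term, and adjusted p-values under 0.05 were called. The fit was tested on simulated data. Ratios were tested with scipy 1.17.1 in Python 3.11.15. Gene models were those of GENCODE vM1, which gave the same length ratios of the 3 genes as the TPM. Genes named were the members, those within 500 kb of Nf1, a list of Ras regulators (1 listed gene is not reported here) and the 5 genes most correlated with each member. The members and lists were chosen with earlier results of these data known. Libraries of a group came from separate animals per the labels. Libraries of a group differed by chi-square values per degree of freedom of 4.51 to 48.2, above counting error. The alternatives tried were filters of 1 TPM and none, a pseudocount of 0.1, deposited TPM, median of ratios scaling, voom, a replicate block and leaving out each library.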

Additional observations from a re-analysis of the deposited data

Results flagged for a closer look

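Evi2b differed in opposite directions with stimulation in the genotypes on scaled TPM. Every stimulated WT library lay above every WT ex vivo library, at a change of 0.21, and every stimulated cKO library lay below every cKO ex vivo library, at -0.71. The changes differed by -0.92 (log2), and this difference was not tested. Of all genes tested, 21.1% were higher in every stimulated WT library and 30.7% lower in every stimulated cKO library. How many genes did both was not counted. Evi2b was chosen by its level in stimulated libraries, so its changes here are a description. With genes down to 1 TPM or with no filter, the change in WT became -0.04 or -0.01, so that the changes in both genotypes were then negative.

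Evi2a as deposited differed between genotypes in opposite directions in the 2 conditions. Every cKO library lay above every WT library ex vivo, at 0.17, and below every WT library after stimulation, at -0.39, a difference of -0.57 (log2) that was not tested. On scaled TPM the genotypes overlapped in both conditions, and in deposited TPM the median of all genes tested stood at 0.21 ex vivo and at -0.30 after stimulation.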

How the results depend on the processing

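The members' changes and the counts of called genes were recomputed under 19 alternatives, 12 of which left out a library, and the ratios within a library ex vivo under 7 each. With genes down to 1 TPM, with no filter and with the TPM as deposited, in that order, the genotype difference after stimulation became -0.40, -0.39 and -0.39 for Evi2a, -1.62, -1.62 and -1.62 for Evi2b and 0.05, 0.05 and 0.06 for Nf1. The stimulation change of Evi2b became -0.04, -0.01 and 0.40 in WT and -1.21, -1.20 and -1.02 in cKO, and that of Nf1 in cKO became -0.04, -0.03 and 0.15. The Nf1 difference ex vivo became 0.52, 0.54 and 0.73 and lost its call (adjusted p 0.556, 0.531 and 0.0784 in limma). Nf1 in stimulated WT lost its call with 1 TPM (0.43) and no filter (0.46). With deposited TPM, Evi2a stood at 0.17 ex vivo between genotypes, against -0.04, and at -0.47 with stimulation in WT, no longer called. Evi2b ex vivo passed with voom (-0.45). These settings moved the median of genes of at least 5 TPM. The shift was at most -0.01 ex vivo, -0.27 after stimulation, -0.23 in WT and -0.49 in cKO for 1 TPM, and 0.22, -0.26, 0.18 and -0.30 for deposited TPM.

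Leaving out a library gave -0.17 to 0.07 for Evi2a, -0.57 to -0.35 for Evi2b and 0.45 to 0.59 for Nf1 between genotypes ex vivo, Evi2a being positive without WT ex vivo 2 (0.07) or cKO ex vivo 2 (0.05), and -0.76 to -0.53 for Evi2a with stimulation in WT. The genotype difference of Evi2b after stimulation ranged from -1.40 to -1.27. Evi2a with stimulation in cKO was called under all 19 alternatives, and the ratios within a library ex vivo kept their direction in 7 each, those of Evi2a to Nf1 chosen after seeing the data.

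Of 13318 genes, 704 were called ex vivo (68.5% higher in cKO), 923 after stimulation (47.6%), 4262 with stimulation in WT (39.6% higher) and 5835 in cKO (39.5%). With deposited TPM the shares were 95.2%, 22.5%, 60.5% and 11.9%. The counts ex vivo were 57 with 1 TPM, 56 with no filter, 273 with deposited TPM and 1203 with voom. After stimulation they were 68, 68 and 306 with 1 TPM, no filter and deposited TPM, and for stimulation in WT they were 1838, 1694 and 1943. Leaving out a library gave 324 to 740 calls ex vivo (lowest without cKO ex vivo 3) and 398 to 1054 after stimulation (lowest without WT stimulated 2). The counts moved over 1.5-fold without WT ex vivo 3 (371) or cKO ex vivo 1 (350), 2 (453) or 3 ex vivo, and without WT stimulated 1 (580), 2 or 3 (456) or cKO stimulated 1 (447) or 3 (602) after stimulation.

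Whether replicate numbers pair the libraries was not settled. Ex vivo, deviations from the group mean correlated between WT and cKO at 0.149, 0.257 and 0.0781 for equal numbers. For unequal numbers they correlated at -0.1816 to 0.0631. In the other comparisons equal numbers gave -0.2085 to 0.0573 and unequal numbers -0.1884 to 0.221. With the number as a replicate block, 516 genes were called ex vivo, 630 after stimulation, 3945 with stimulation in WT and 5457 in cKO, and Evi2b ex vivo passed at -0.43 (adjusted p 0.0336 in limma), with no other change of a member's call. Of 32 calls of neighbouring genes and Ras regulators over the 4 comparisons, 16 were lost with 1 TPM, 16 with no filter, 14 with deposited TPM, 3 with the block (Rasa2 ex vivo and in stimulated WT, Dab2ip after stimulation) and 1 with voom. Among the 3 members, depth limits Evi2a most, at 64 to 81 reads per library in stimulated cKO.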
